A study of Homo sapiens with 6 samples.

Results

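The genes described here are the ligands, the receptor and the secreted binding proteins of the insulin-like growth factor (IGF) system: IGF1, IGF2, IGF1R and IGFBP1 to IGFBP7. These 10 genes were taken by symbol from a table of 58364 gene rows, and each had 1 row. They were selected on their FPKM in the MSX2-/- and WT libraries, with the difference between these groups already known, so that difference is given below as a description and is not tested. The data are RNA-seq of cells derived from H1, a human embryonic stem cell (hESC) line, collected at day 8 of hematopoietic differentiation in a chemically defined medium. There were 2 WT libraries and 4 libraries labelled MSX2-/-, in which CRISPR/Cas9 was aimed at the second exon of MSX2, a homeobox transcription factor. The 4 came from 2 lines, 1# and 2#, each grown from a single colony, so line and clone cannot be told apart. The labels also give every library a set letter, F for replicate 1 and S for replicate 2, without saying what the letter stands for, and each of WT, 1# and 2# had 1 library in each set. CD31+ is written in the labels of the MSX2-/- libraries and not in those of WT, while the text of the study uses it for both. All groups share the stepwise protocol of the labels, activin A with BMP4 and then VEGF with bFGF. The protocol text also speaks of HAND1 overexpression, which no sample label carries.

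IGF1 and IGF2 are small secreted growth factors that signal through IGF1R, a tyrosine kinase receptor at the cell surface. Nearly all IGF outside cells is held by IGF binding proteins, which carry it, keep it from the receptor or release it when proteases cut them, and several of them also act on cells without IGF. IGF2 is an imprinted growth factor gene of the embryo, expressed mainly from the paternal allele, and IGF signals support the expansion of mesoderm and of early blood and endothelial cells.

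Values are FPKM, fragments scaled to the length of the transcript and to the fragments mapped in the library. The libraries summed to 555286 to 617120 FPKM over all genes and had 13366 to 14222 genes at 1 FPKM or more, and the number of reads is unknown. MSX2 mRNA was 3.64 and 1.44 FPKM in the WT libraries of sets F and S, 18.0 and 5.62 FPKM in 1#, and 31.8 and 6.69 FPKM in 2#. It was higher in the libraries labelled MSX2-/-, and a level of mRNA does not show whether the coding sequence was cut. The study reports a frameshift and deletion of MSX2 in its MSX2-/- clones, checked by DNA sequencing. Every direction below is that between libraries so labelled. The 2 sets stood apart across the genome. Of the 15895 genes whose mean reached 0.5 FPKM, 12.5% were higher and 15.5% were lower in set S than in set F at an adjusted p under 0.05 (limma, lines as a term, Benjamini-Hochberg). For that reason the sets are given separately below.

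The binding protein mRNA of these cells was almost entirely IGFBP2 and IGFBP4. In WT cells the order of mean levels was IGFBP2 at 1057 FPKM, IGFBP4 at 1027, IGF2 at 51.4, IGF1R at 18.4, IGFBP7 at 14.3, IGFBP3 at 9.37, IGFBP5 at 3.25, IGFBP6 at 1.48, IGFBP1 at 0.997 and IGF1 at 0.0641. The ranges of IGF1R and IGFBP7 overlapped over the 2 WT libraries, as did those of IGFBP6 and IGFBP1, and the other neighbours in this order did not overlap. In MSX2-/- cells IGFBP5, at a mean of 43.7 FPKM, came next after IGFBP2 at 918, IGFBP4 at 776 and IGF2 at 121. Behind it IGFBP3, IGFBP7, IGF1R and IGFBP6 followed at 34.6, 17.7, 12.6 and 8.25 FPKM, and each neighbour from IGFBP5 down to IGFBP6 overlapped the next.

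**Figure D1:**
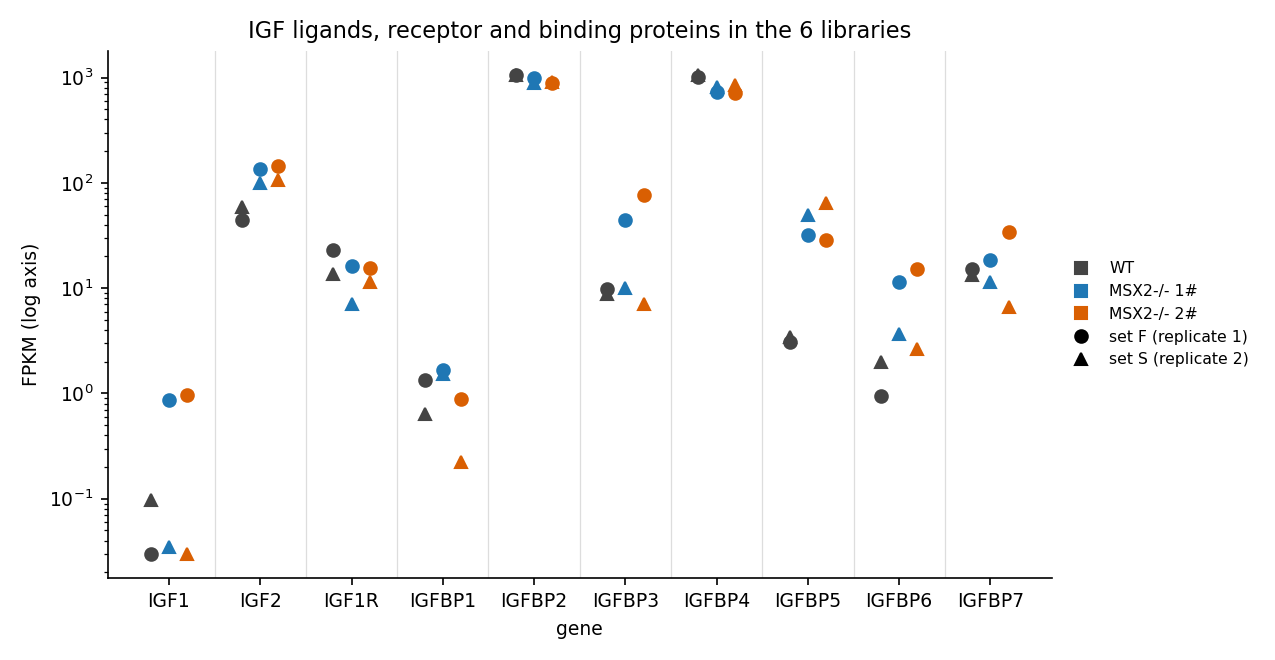
Level of each gene in FPKM on a log axis, with 1 point per library, colored by line (WT, MSX2-/- 1#, MSX2-/- 2#) and shaped by set. IGFBP2 and IGFBP4 lie at 714 FPKM or more in every library, IGFBP5 is at 3.09 and 3.41 FPKM in WT and at 28.4 to 64.8 FPKM in MSX2-/-, and IGFBP3, IGFBP6 and IGF1 are high in set F of both MSX2-/- lines.

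In 3 genes all 4 MSX2-/- libraries lay above both WT libraries (IGF2, IGFBP5 and IGFBP6), in 2 they lay below (IGFBP2 and IGFBP4), and in 5 the groups overlapped. Of all 15895 genes, 12.1% lay above in this way and 9.19% below. The genes were chosen with this contrast, so nothing is read from the counts.

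Among the ligands, IGF2 carried nearly all of the mRNA. IGF2 was 44.4 and 58.4 FPKM in the WT libraries of sets F and S, 135 and 99.1 FPKM in 1#, and 145 and 106 FPKM in 2#. Every MSX2-/- library was above both WT libraries, and the means were 51.4 ± 9.91 FPKM in WT (SD, n = 2) and 121 ± 22.2 FPKM in the MSX2-/- libraries (SD, n = 4), a ratio of 2.36. The difference was 1.22 on the scale of log2(FPKM + 1), with a standard error of 0.20 from the fit across all genes. Within set F the MSX2-/- lines were 3.03-fold and 3.27-fold above WT, and within set S 1.70-fold and 1.82-fold. IGF1 was 0.0299 and 0.0982 FPKM in WT, 0.864 and 0.0349 FPKM in 1#, and 0.964 and 0.0301 FPKM in 2#. It came near 1 FPKM in the set F libraries of both MSX2-/- lines and stayed under 0.1 FPKM in the other 4 libraries, and with a mean of 0.337 FPKM it was under the filter and was not tested.

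IGF2 lies on chromosome 11 from 2129112 to 2158658 (GENCODE, GRCh38), on the minus strand, and overlaps the readthrough gene INS-IGF2 and the antisense gene IGF2-AS. The strand setting of the libraries is not given, so reads of IGF2 and IGF2-AS may not have been told apart where they overlap. IGF2-AS was 0.187 FPKM and listed at 0 in WT, 0.984 and 0.360 FPKM in 1#, and 0.919 and 0.204 FPKM in 2#. INS-IGF2, which shares exons with IGF2, reached at most 0.416 FPKM, and INS was listed at 0 in all 6 libraries. H19, the imprinted noncoding RNA gene beside IGF2 that is expressed from the maternal allele, was 0.364 and 1.27 FPKM in WT, 7.22 and 5.18 FPKM in 1#, and 2.04 and 0.311 FPKM in 2#. The H19 level was high in both libraries of 1# and overlapped WT in 2#, unlike IGF2, which was above WT in both lines.

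IGF1R, on chromosome 15 from 98648539 to 98964530, was lower in set S than in set F in all 3 lines. The receptor was 23.0 and 13.7 FPKM in WT, 16.1 and 7.15 FPKM in 1#, and 15.6 and 11.4 FPKM in 2#. The means were 18.2 FPKM in set F and 10.7 FPKM in set S, and the difference was -0.73 (SE 0.15) on the log2 scale, with an adjusted p of 0.0199 over 15895 genes (limma, lines as a term). It was the 1 gene of the 9 tested that passed this test, while 15.5% of all genes were lower in set S. At an unadjusted p under 0.05 (limma) there were 5 of the 9, beside 6898 of all 15895 genes, so nothing is read from that count. The call was lost without either library of WT or of 1#, at adjusted p values of 0.0544 to 0.0936, and with no filter on low values, at 0.284. IGF1R was lower in each MSX2-/- library than in the WT library of its set, by 1.20-fold to 1.92-fold, although the groups overlapped when the sets were pooled. The mean difference from WT was -0.53 (SE 0.36) on the log2 scale, with a standard error of 0.17 when the set was a term.

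Of the 10 genes, IGFBP5 had the highest ratio to WT. This binding protein attaches to extracellular matrix and is known from smooth muscle, bone and senescent endothelium. IGFBP5 was 3.09 and 3.41 FPKM in the WT libraries of sets F and S, 31.9 and 49.8 FPKM in 1#, and 28.4 and 64.8 FPKM in 2#. The lowest MSX2-/- library was far above the higher WT library, and in both MSX2-/- lines set S was above set F. WT had a mean of 3.25 ± 0.225 FPKM (SD, n = 2) and MSX2-/- one of 43.7 ± 16.9 FPKM (SD, n = 4), a ratio of 13.4 and a difference of 3.32 (SE 0.34) on the log2 scale. Within sets the ratio to WT was 10.3 and 14.6 in 1# for sets F and S, and 9.18 and 18.98 in 2#. Among the 10 genes, those in which every MSX2-/- library was above the WT library of its own set were IGFBP5, IGF2 and IGFBP6.

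On chromosome 2 IGFBP5 spans 216672105 to 216695525 (GENCODE, GRCh38, minus strand) and IGFBP2 spans 216632828 to 216664436 (plus strand), with 7668 bases between them and their ends facing. An antisense gene, AC007563.2, overlaps the first 1062 bases of IGFBP5 and was at or near 0 in all libraries. These neighbours differed in opposite directions from WT. IGFBP2 was 1049 and 1065 FPKM in WT, 994 and 887 FPKM in 1#, and 882 and 909 FPKM in 2#. All MSX2-/- libraries of IGFBP2 lay below WT, by a small margin, with a difference of -0.20 (SE 0.08) on the log2 scale. TNS1, further along the same chromosome, was 6.42 and 4.41 FPKM in WT and 7.40 to 9.85 FPKM in MSX2-/-, and did not overlap either.

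IGFBP4, which holds IGF away from its receptor until the protease PAPPA cuts it, was the other abundant binding protein. It was 1005 and 1049 FPKM in WT, 726 and 818 FPKM in 1#, and 714 and 846 FPKM in 2#. Each MSX2-/- library was below both WT libraries, and the ratio of the WT mean to the MSX2-/- mean was 1.32, with a difference of -0.41 (SE 0.10) on the log2 scale. IGFBP4 was higher in set S than in set F in all 3 lines, by 0.16 (SE 0.06) on the log2 scale, and did not pass the test (adjusted p = 0.103, limma).

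IGFBP3 and IGFBP6 were high in set F of both MSX2-/- lines. IGFBP3, the main carrier of IGF in serum, lies on chromosome 7 from 45912245 to 45921874, and IGFBP6, which prefers IGF2 over IGF1, on chromosome 12 from 53097436 to 53102345. IGFBP3 was 9.90 and 8.83 FPKM in the WT libraries of sets F and S, 44.0 and 9.997 FPKM in 1#, and 77.2 and 7.13 FPKM in 2#. Set F of MSX2-/- was 4.45-fold and 7.80-fold above WT, and set S of 1# and 2# lay just above and just below the WT library of that set. The difference from WT was 2.45 on the log2 scale in set F and -0.06 in set S. IGFBP6 was 0.956 and 2.01 FPKM in WT, 11.5 and 3.66 FPKM in 1#, and 15.2 and 2.62 FPKM in 2#. All MSX2-/- libraries of IGFBP6 were above WT, by 12.0-fold and 15.9-fold in set F and by 1.83-fold and 1.31-fold in set S. Over both sets the difference from WT was 1.19 (SE 0.92) on the log2 scale for IGFBP3 and 1.66 (SE 0.65) for IGFBP6.

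IGFBP7, which binds IGF weakly and is made by vascular endothelium, lies on chromosome 4 from 57030773 to 57110385. It overlaps 396 bases of POLR2B on the opposite strand, where reads may not have been told apart. IGFBP7 was 15.2 and 13.3 FPKM in WT, 18.7 and 11.4 FPKM in 1#, and 33.8 and 6.66 FPKM in 2#. Both MSX2-/- lines were above WT in set F and below WT in set S, and the mean difference was 0.07 (SE 0.56) on the log2 scale. IGFBP1, a binding protein of liver and decidua, was 1.35 and 0.643 FPKM in WT, 1.67 and 1.54 FPKM in 1#, and 0.894 and 0.221 FPKM in 2#. In both sets 1# was above WT and 2# was below it. IGFBP1 and IGFBP3 are neighbours on chromosome 7, separated by 18576 bases with their ends facing, and their levels were ordered differently over the libraries.

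**Figure D2:**
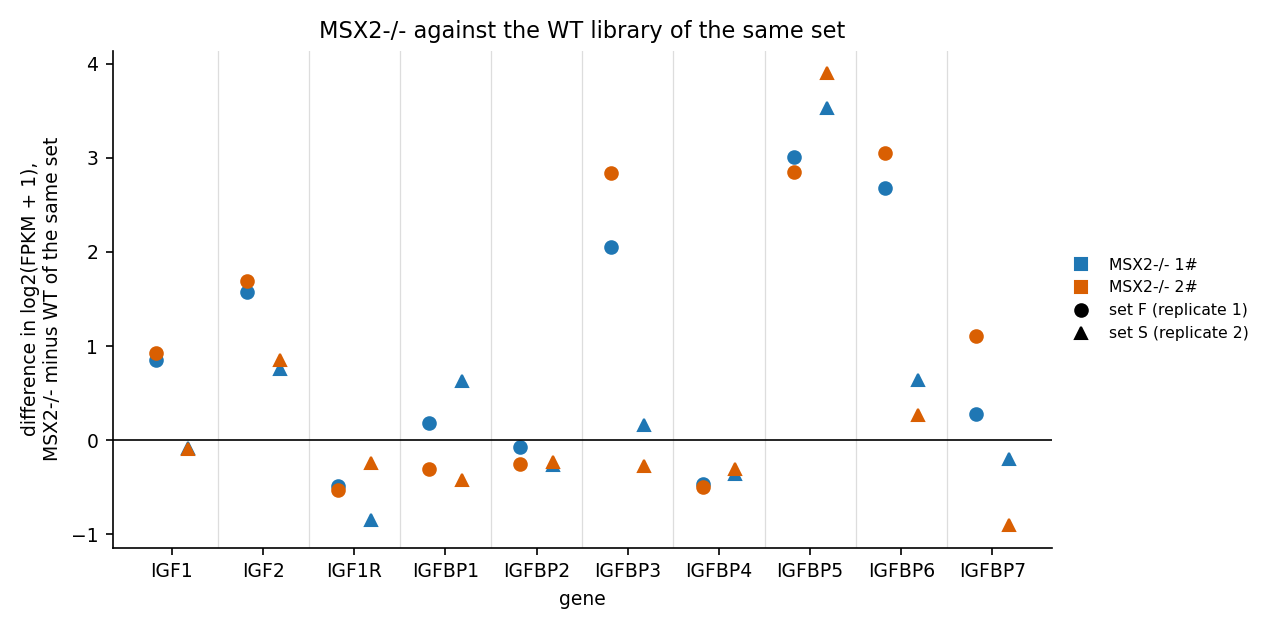
Difference in log2(FPKM + 1) between each MSX2-/- library and the WT library of the same set, for each gene, with the line as color and the set as shape. IGFBP5 lies between 2.84 and 3.90 in all 4 comparisons, whereas IGFBP3 and IGF1 lie high in set F and near 0 in set S, and IGFBP6 lies high in set F and at 0.63 and 0.27 in set S.

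The distance of MSX2-/- from WT was set against itself in the 2 sets. From set F to set S it changed by -2.50 (SE 0.54) on the log2 scale for IGFBP3, by -2.41 (SE 0.36) for IGFBP6 and by -0.83 (SE 0.13) for IGF2, where it was smaller in set S. For IGFBP5 it changed by 0.78 (SE 0.27) and was larger in set S. The genes were chosen with the differences within each set known, so these values are a description with no test. In the same fit 0.0189% of all genes passed with a negative interaction of genotype and set and 0% with a positive one (limma, adjusted p under 0.05), with 1 WT library in each set, and nothing is read from this about the IGF genes.

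The 2 MSX2-/- lines were compared with each other. The genes were chosen with the difference of each line from WT known, so the values are a description with no test. In the same fit 0% of all genes passed between 2# and 1# (limma, adjusted p under 0.05), and nothing is read from this about the IGF genes. The standard errors ran from 0.11 for IGFBP2 to 1.15 for IGFBP3, with 2 libraries in each line, so the lines are not shown to be alike. With the set as a block 0 of all 15895 genes passed after adjustment. Among the 9 IGF genes in that fit IGFBP1 had the largest difference between the lines, at -0.78 (SE 0.22) on the log2 scale, also as a description. For the 5 genes whose groups did not overlap, the differences between the lines were 0.10 (SE 0.25) for IGF2, 0.11 (SE 0.42) for IGFBP5, 0.004 (SE 0.82) for IGFBP6, -0.07 (SE 0.11) for IGFBP2 and 0.01 (SE 0.13) for IGFBP4.

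Several of the genes differed between the sets by amounts that did not pass the test. IGFBP3 differed by -1.82 (SE 0.55) on the log2 scale between set S and set F (adjusted p = 0.0596, limma, lower in set S in 3 of 3 lines). IGFBP7 differed by -1.01 (SE 0.37, adjusted p = 0.0969, limma, lower in set S in 3 of 3 lines). IGFBP5 differed by 0.63 (SE 0.20, adjusted p = 0.0676, limma) and was higher in set S in 3 of 3 lines. The WT libraries of sets F and S were 9.90 and 8.83 FPKM for IGFBP3, 15.2 and 13.3 for IGFBP7 and 3.09 and 3.41 for IGFBP5. Most of these differences thus came from the MSX2-/- lines. With genotype in place of line as the term, IGFBP3 and IGFBP5 passed, at adjusted p values of 0.0402 and 0.0451 (limma). In that fit 5492 of all 15895 genes passed, so nothing is read from this about the IGF genes. Without the WT library of set F, the differences of IGFBP3, IGFBP5, IGFBP6 and IGF2 were -2.65, 0.89, -1.79 and -0.44 on the log2 scale. They were the same without the WT library of set S. Such a fit compares MSX2-/- libraries only, and the genes were chosen with the differences within each set known, so no test is given for it. Without the set F library of 2# none of these 4 passed, and the differences were -1.09 for IGFBP3, 0.37 for IGFBP5, -0.40 for IGFBP6 and -0.02 for IGF2 (adjusted p = 0.171, 0.222, 0.615 and 0.949, limma). IGFBP7 was then at -0.42 (adjusted p = 0.185, limma). Without either library of 1# none of the 9 genes passed.

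The summed level of IGFBP1 to IGFBP6, the binding proteins of high affinity, was 2069 and 2128 FPKM in WT and 1717 to 1830.1 FPKM in MSX2-/-. IGFBP2 and IGFBP4 made up 99.3% of it in both WT libraries and 92.9% to 96.3% in MSX2-/-. IGFBP5 took 0.1496% and 0.160% of the sum in WT and 1.65% to 3.54% in MSX2-/-, and IGFBP3 took 2.43% and 4.50% in set F of 1# and 2# and under 0.6% elsewhere. For each FPKM of IGF2 there were 46.6 and 36.4 FPKM of these binding proteins in WT, and 13.5 and 17.9 FPKM in 1# and 11.8 and 17.2 FPKM in 2#. The ratio was lower in every MSX2-/- library than in either WT library, mostly through the higher IGF2 and less through the lower IGFBP2 and IGFBP4. The MSX2-/- mean was 2.36-fold that of WT for IGF2, 0.869-fold for IGFBP2 and 0.756-fold for IGFBP4. The ratio counts mRNA, not protein.

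**Figure D3:**
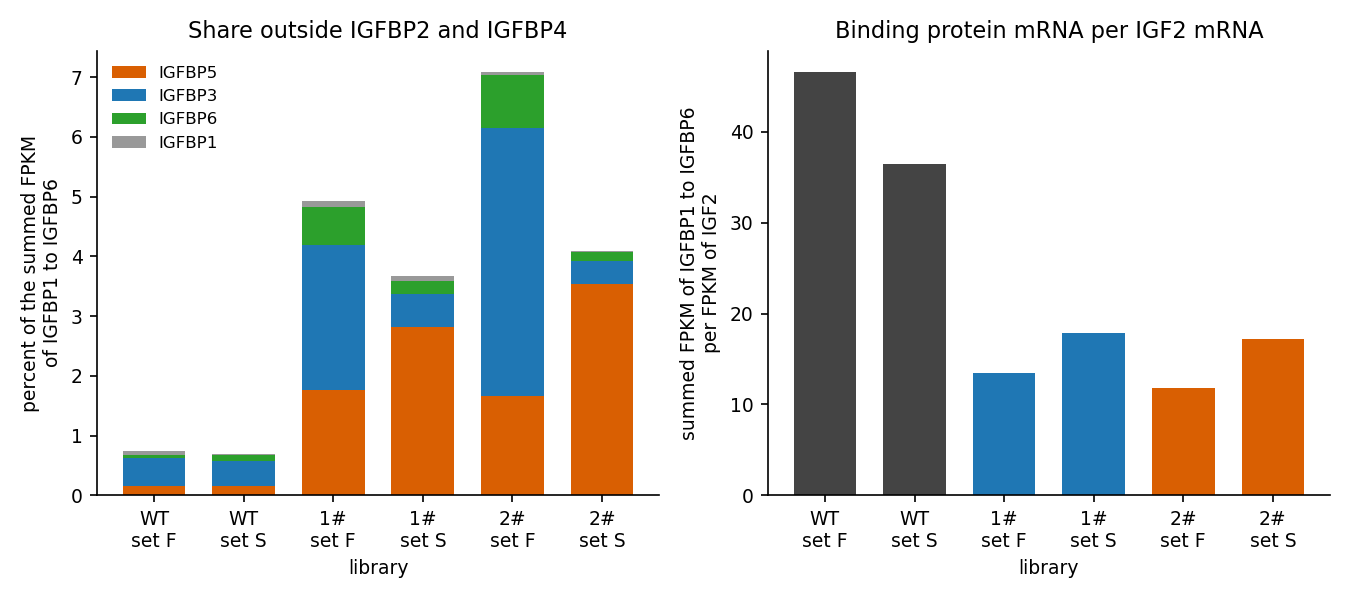
Left, the percent of the summed FPKM of IGFBP1 to IGFBP6 that was not IGFBP2 or IGFBP4, stacked by gene for each library. Right, the summed FPKM of IGFBP1 to IGFBP6 per FPKM of IGF2. IGFBP5 on the left is at most 0.160% in WT and at least 1.65% in MSX2-/-, and the ratio on the right is at least 36.4 in WT and at most 17.9 in MSX2-/-.

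The bases before the transcription start were read for the genes with an entry among RefSeq promoters (GRCh38.p14), 7 of the 10. IGF2, IGFBP1 and IGFBP7 had none. The sequences of IGFBP5, IGFBP3 and IGFBP4 are shown because they are the binding proteins that differed in unlike ways, high in both sets, high in set F and low in both sets, and that of IGF1R because the receptor passed the test between sets. They run 5′ to 3′ on the strand of the gene, and capitals mark matches to the motifs searched on both strands, apart from a GGGCGG on the opposite strand from -6 to -1 in IGFBP3, which runs into the 2 bases left out there. The windows are chr2:216695550-216695799 on the minus strand for IGFBP5, chr7:45921275-45921522 on the minus strand for IGFBP3 (248 bases, since 2 lie in an annotated exon), chr17:40443200-40443449 on the plus strand for IGFBP4 and chr15:98648289-98648538 on the plus strand for IGF1R.
IGFBP5: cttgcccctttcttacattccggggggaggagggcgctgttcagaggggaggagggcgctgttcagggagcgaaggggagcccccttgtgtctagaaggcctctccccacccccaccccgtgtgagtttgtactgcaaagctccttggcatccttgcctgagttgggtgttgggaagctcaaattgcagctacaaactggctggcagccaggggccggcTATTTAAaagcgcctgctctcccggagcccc
IGFBP3: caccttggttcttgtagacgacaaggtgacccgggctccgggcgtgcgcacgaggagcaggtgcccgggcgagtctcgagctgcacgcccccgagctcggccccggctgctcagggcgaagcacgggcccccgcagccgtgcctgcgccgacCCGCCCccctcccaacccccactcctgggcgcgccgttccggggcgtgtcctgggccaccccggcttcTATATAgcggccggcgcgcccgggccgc
IGFBP4: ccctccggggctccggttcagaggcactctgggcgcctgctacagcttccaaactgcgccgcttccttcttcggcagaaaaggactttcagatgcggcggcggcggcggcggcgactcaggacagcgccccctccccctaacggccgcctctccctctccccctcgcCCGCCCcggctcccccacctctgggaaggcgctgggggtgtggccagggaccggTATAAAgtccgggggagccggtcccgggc
IGF1R: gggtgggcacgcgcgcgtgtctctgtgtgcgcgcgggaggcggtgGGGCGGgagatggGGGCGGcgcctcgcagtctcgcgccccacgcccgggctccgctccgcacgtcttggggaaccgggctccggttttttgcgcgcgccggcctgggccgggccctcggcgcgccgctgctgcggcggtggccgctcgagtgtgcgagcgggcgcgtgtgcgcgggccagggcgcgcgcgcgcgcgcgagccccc

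The 3 binding proteins each had a run of the TATA type at the usual distance from the start. It was TATTTAA from -31 to -25 in IGFBP5, TATATA from -30 to -25 in IGFBP3 and TATAAA from -29 to -24 in IGFBP4. These letters stood anywhere in the 250 bases of 4.17%, 3.73% and 10.7% of 35116 promoters. None of the 3 was found in the windows of IGF1, IGFBP2 and IGFBP6 or in that of IGF1R. The window of IGF1R had 81.2% G and C and matched GGGCGG, the letters of a GC box, at -205 and -192. GGGCGG, on either strand and with no overlap with another match, was also found in IGFBP2, IGFBP3, IGFBP4 and IGFBP6, not in IGFBP5, and stood in 42.6% of all promoters. In IGFBP2 it was in entries 1 and 2 of 3. In IGFBP6 231 of the 250 bases lie in an annotated exon, and the match is among them. TAATTG, the core bound by MSX homeodomains, and GTCTAGAC, a palindrome bound by SMAD3 and SMAD4, had no match in the 7 genes, against 6.70% and 0.182% of all promoters. A missing match says only that these letters are not in these windows. TATTTAA was added to the search after the sequence of IGFBP5 was seen.

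For the 3 genes that varied most over the libraries, the other genes with the most similar pattern were taken by Pearson's r of log2(FPKM + 1) over the 6 libraries. For IGFBP5 they were GSTO1, NOSTRIN and SH2D2A, each at r = 0.998 or more, and 263 genes had an r above 0.95. For IGFBP3 they were LINC01305, DHRS11 and SEZ6L2 (r = 0.997, 0.995 and 0.994), and for IGFBP6 AC106875.1, PCOLCE2 and STAC (r = 0.999, 0.996 and 0.993), with 172 and 100 genes above 0.95. NOSTRIN, which traffics endothelial nitric oxide synthase, was 6.99 and 7.24 FPKM in WT, 16.0 and 20.0 FPKM in 1#, and 15.7 and 20.4 FPKM in 2#. The 6 points share the same lines and sets, and no p is given.

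Other genes of the IGF pathway were counted by role from a list of 77 symbols, 71 of them in the table and 61 tested. Without a block 3 were higher in MSX2-/- and 0 lower (limma, adjusted p under 0.05), beside 0.963% of all genes higher and 0.321% lower. With the set as a block 11 were higher and 2 lower, beside 6.11% and 3.74% of all genes. The median difference over the 61 genes was 0.05 on the log2 scale and that over all genes 0.01.

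Among receptors and docking proteins, IRS1 was higher in MSX2-/-. IRS1, the adaptor that couples the IGF1 and insulin receptors to PI3 kinase, was 0.525 and 0.795 FPKM in WT, 3.08 and 3.18 FPKM in 1#, and 3.17 and 2.41 FPKM in 2#. The 4 MSX2-/- libraries were alike and all above WT, with a difference of 1.25 (SE 0.18) on the log2 scale and an adjusted p of 0.0346 (limma), which became 0.0866 to 0.221 when any 1 library was left out, 0.0926 with no filter and 0.117 with 3 groups. It was the 1 gene of 8 docking proteins that passed. Of the receptors, IGF2R, which takes up and degrades IGF2, was 25.4 and 15.8 FPKM in WT and 14.8 to 22.4 FPKM in MSX2-/-, and INSR was 2.52 and 0.846 FPKM in WT and 1.01 to 4.49 FPKM in MSX2-/-. Both overlapped WT, and neither passed in either fit. None of 8 receptor inhibitors and none of the 3 proteins that bind IGF2 mRNA (IGF2BP1, IGF2BP2 and IGF2BP3) passed in either fit.

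In the PI3 kinase and AKT branch 0 of 21 genes were called without the block and 3 with it. PIK3CB, a catalytic subunit of PI3 kinase, was 11.1 and 10.8 FPKM in WT and 16.1 to 16.9 FPKM in MSX2-/- (difference 0.56, adjusted p = 0.103, and 0.0107 with the block, limma). EIF4EBP1, the inhibitor of translation that MTOR inactivates, differed by 0.44 (adjusted p = 0.185, and 0.0464 with the block, limma). The regulatory subunit gene PIK3R3 differed by -0.66 (adjusted p = 0.440, and 0.0306 with the block, limma), with 13.1 and 20.8 FPKM in WT and 7.71 to 14.2 FPKM in MSX2-/-.

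Of the proteases that cut IGF binding proteins and their inhibitors, 1 of the 10 tested was called without the block and 3 with it. PLAT, tissue-type plasminogen activator, was 5.65 and 9.74 FPKM in WT, 21.5 and 24.2 FPKM in 1#, and 21.7 and 22.3 FPKM in 2#. It was above WT in all MSX2-/- libraries, by 1.47 (SE 0.21) on the log2 scale (adjusted p = 0.0322, limma), and lost the call without any library but the WT library of set S, at 0.0797 to 0.116, and also with no filter (0.183) and with 3 groups (0.113). HTRA1, a serine protease that cuts IGFBP5, was 49.4 and 34.7 FPKM in WT, 68.4 and 43.0 FPKM in 1#, and 72.0 and 40.8 FPKM in 2# (difference 0.38, adjusted p = 0.733, and 0.0387 with the block, limma). STC1, an inhibitor of PAPPA, differed by -0.67 (adjusted p = 0.833, and 0.0327 with the block, limma). HTRA1 and STC1 differed from WT within each set and overlapped it when the sets were pooled. PAPPA itself, which cuts IGFBP4, was 0.121 and 0.0578 FPKM in WT and 0.584 to 1.20 FPKM in MSX2-/-, a difference of 0.72 that passed in neither fit (adjusted p = 0.206, and 0.0695 with the block, limma), and it is named after its values were seen. Among the complex partners SPARC, a secreted matrix protein, was 941 and 926 FPKM in WT and 1105 to 1499 FPKM in MSX2-/- (difference 0.46, adjusted p = 0.212, and 0.0254 with the block, limma).

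Genes of other families that carry an IGFBP domain were taken as the last role. Of 8 tested, 1 was higher without the block, beside 0.963% of all genes, and 6 were higher with it, beside 6.11%. The median difference of the 8 was 0.77 on the log2 scale. The list was chosen with earlier results of these data known, so these counts are not independent evidence. ESM1, or endocan, a proteoglycan secreted by endothelial tip cells, was 5.34 and 10.03 FPKM in WT, 208 and 162 FPKM in 1#, and 184 and 139 FPKM in 2#. Its lowest MSX2-/- library was more than 10 times the higher WT library, the ratio of means was 22.6, and the difference was 4.37 (SE 0.26) on the log2 scale (adjusted p = 0.00535, limma). This call held in each alternative with both WT libraries, but only just with 3 groups (adjusted p = 0.0499, limma). Without 1 of the WT libraries the difference was 3.97 to 4.77. ESM1 is on the list chosen with earlier results known, so its p is not independent evidence either. The matrix proteins CYR61 and CTGF were above WT in all MSX2-/- libraries, by 1.48 (adjusted p = 0.0638, and 0.00153 with the block, limma) and 0.78 (adjusted p = 0.169, and 0.00659 with the block, limma). The protease gene HTRA3 differed by 1.24 (adjusted p = 0.05998, and 0.00826 with the block, limma). The other genes that passed with the block were HTRA1 and IGFBPL1, of which IGFBPL1 was named after its values were seen. CYR61 and CTGF, like IGFBP5, were higher in set S than in set F in each line.

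**Figure D4:**
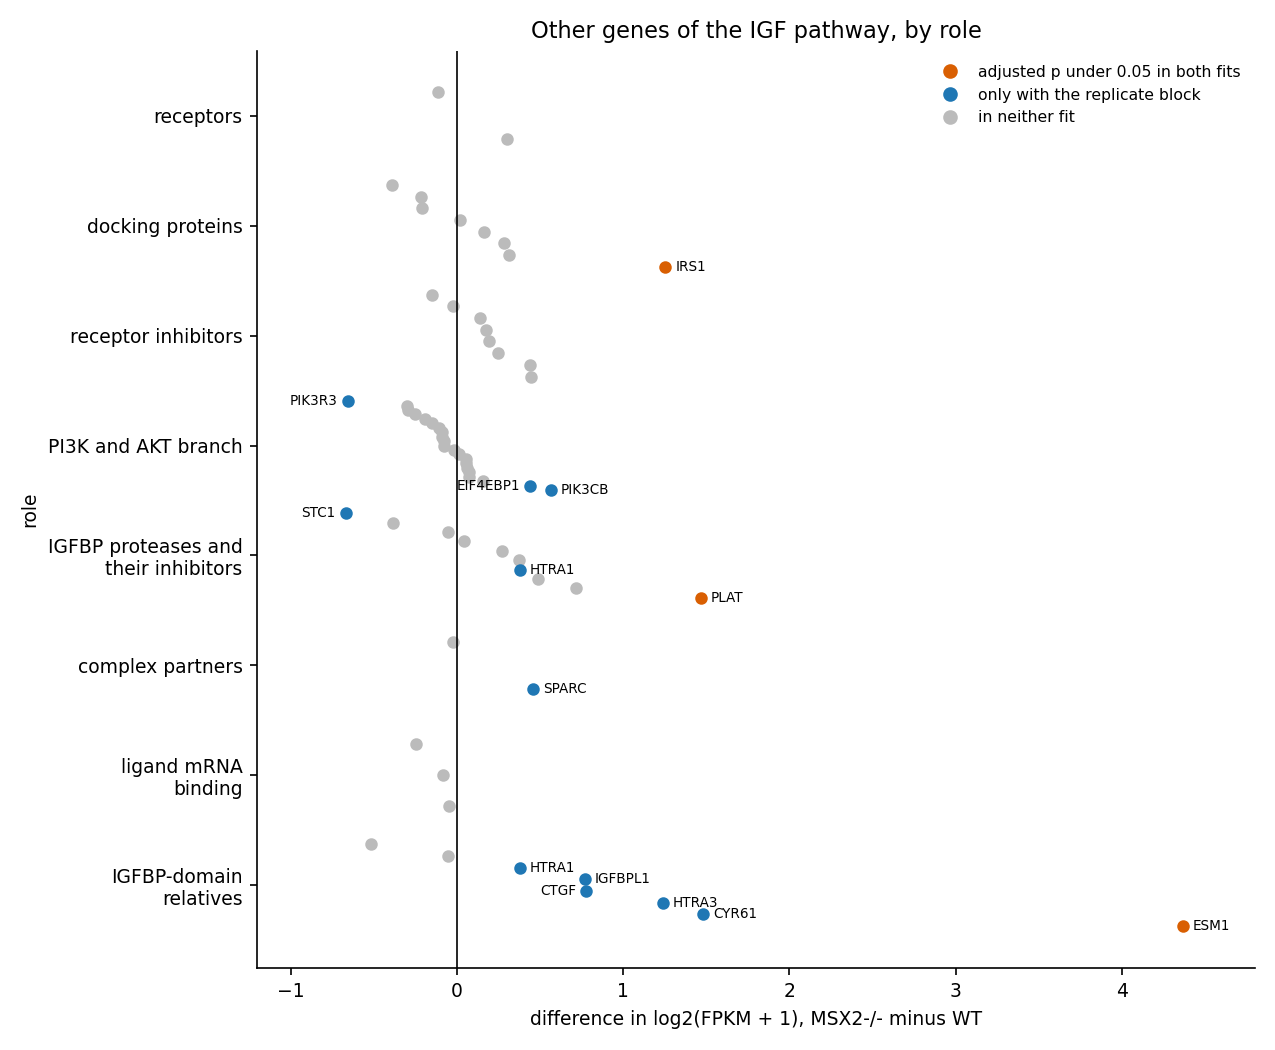
Difference in log2(FPKM + 1) between MSX2-/- and WT for the 61 tested genes of the IGF pathway other than those described above, arranged by role, with HTRA1 under both of its roles. Genes called in both fits are orange (IRS1, PLAT and ESM1), those called only with the replicate block are blue and the rest are grey.

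Markers of the labelled cell type and of others were measured in the same libraries, as summed FPKM of each list. The endothelial list (12 genes, among them PECAM1, which encodes CD31, CDH5 and KDR) summed to 2722 and 2884 FPKM in WT and 1769 to 2167 FPKM in MSX2-/-, with 6 genes below WT and 1 above. The stromal list (12 genes) summed to 281 and 338 FPKM in WT and 501 to 577 FPKM in MSX2-/-, with 4 genes above, 1 below and 7 overlapping. TCF21 was under 0.5 FPKM in all libraries. COL1A1 was 27.7 and 55.9 FPKM in WT and 193 to 206 FPKM in MSX2-/-, while COL1A2 and COL3A1 overlapped. The blood list (12 genes) summed to 116 and 126 FPKM in WT and 185 to 374 FPKM in MSX2-/-, with 3 genes above and 1 below, and with PTPRC and MPO under 0.5 FPKM in all libraries. The cardiac list (9 genes) was 49.1 and 64.9 FPKM in WT and 117 to 159 FPKM in MSX2-/-, with 6 genes above and 3 overlapping. MYH6 and MYH7 were under 0.5 FPKM in all libraries. IGFBP5, IGF2 and ESM1 were high in the same 4 libraries as the stromal and cardiac lists. The sums of the blood list and of the epithelial and pluripotency lists given below were also above WT in all 4, so this is not particular to stromal and cardiac genes. The part of other cells in the levels of IGFBP5, IGF2 and ESM1 was not tested. In bulk RNA, fewer cells of a type and less RNA per cell cannot be told apart.

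The libraries with high IGFBP3, IGFBP6 and IGF1 were also those with high epithelial markers. The epithelial list (7 genes) summed to 238 and 197 FPKM in WT, 462 and 260 FPKM in 1#, and 574 and 252 FPKM in 2#, so the set F libraries of MSX2-/- were the highest. Of its 7 genes 5 were above WT in all MSX2-/- libraries and 2, EPCAM and CLDN7, overlapped. In set F, KRT19 was 10.6 FPKM in WT and 78.3 and 112 FPKM in 1# and 2#, while CLDN7 was 83.3 FPKM in WT and 66.1 and 74.8 FPKM in 1# and 2#. The blood list was highest in the same libraries, at 283 and 374 FPKM, with the embryonic globin HBE1 at 125 and 164 FPKM there and 24.4 to 36.6 FPKM elsewhere. The hepatic endoderm list (12 genes) was 236 and 142 FPKM in WT, 447 and 436 FPKM in 1#, and 240 and 16.1 FPKM in 2#, highest in 1# and lowest in set S of 2#, where IGFBP1 was highest and lowest too. Its 12 genes all overlapped WT. The pluripotency list (8 genes) was 94.3 and 112 FPKM in WT and 113 to 134 FPKM in MSX2-/-, with NANOG and SOX2 under 0.5 FPKM in all libraries. The part of these cells in the levels of IGFBP1, IGFBP3, IGFBP6 and IGF1 was not tested.

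**Figure D5:**
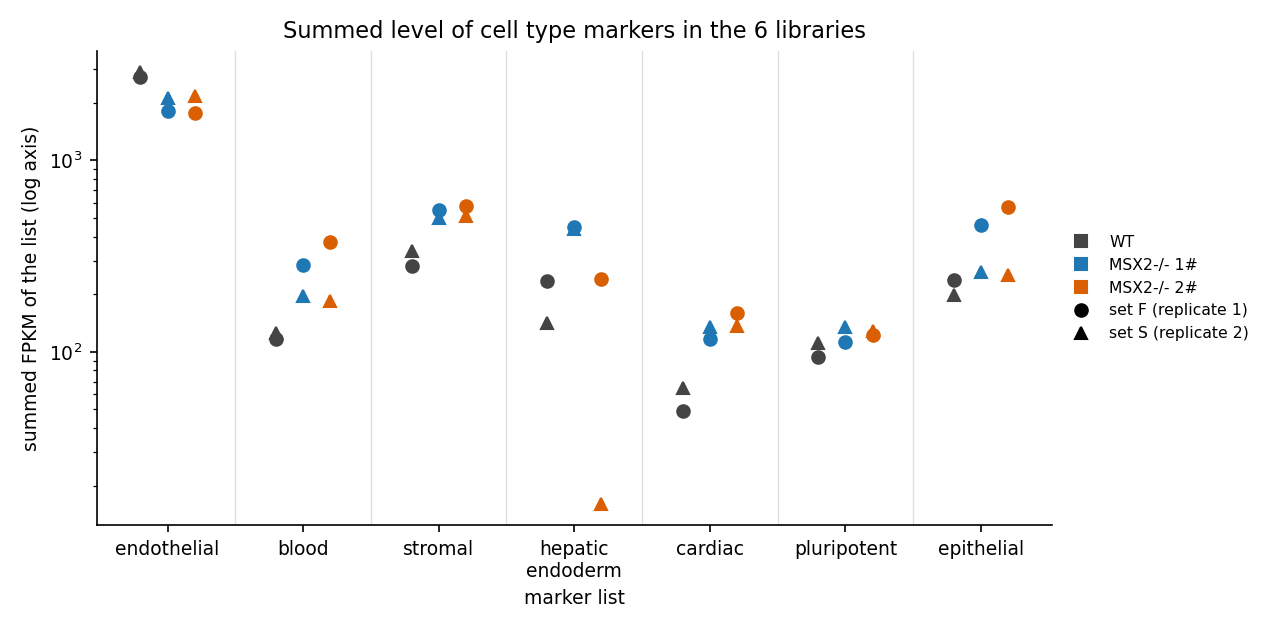
Summed FPKM of each marker list on a log axis, with 1 point per library, colored by line and shaped by set. The endothelial sum is highest in WT, the epithelial sum is highest in set F of the MSX2-/- lines, and the hepatic sum is lowest, at 16.1 FPKM, in set S of 2#.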

How the data were processed

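The authors deposited FPKM values, 1 row per gene and 1 column per library. RNA was extracted with Trizol and libraries were made with the Illumina TruSeq kit. The submitters' processing notes name BWA, Bowtie, RSEM and the build hg19, and the series text names TopHat and Cufflinks; versions, annotation and strand setting are not given in the sources used here. The columns number the clones 1 and 2 and the labels number them otherwise, so the MSX2-/- columns were assigned to their group only, and their set follows from the replicate number in the column name. The table holds 58364 rows with values and 1 without, which was left out.

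Genes whose mean reached 0.5 FPKM, 15895 in all, were tested by limma 3.58.1 (R 4.3.3) after log2 transformation with a pseudocount of 1. Variances were moderated with a trend on the mean level. P-values were adjusted over all tested genes by the Benjamini-Hochberg method, with a threshold of 0.05. A set contrast had the line as a term, the clones were compared in a fit of 3 groups, and pathway genes in a fit of 2 groups. FPKM hide the number of reads, so no interval from counting is given, and an FPKM depends on the isoform lengths the authors assigned. Coordinates and overlapping genes came from GENCODE v29 and upstream sequences from RefSeq, both on GRCh38 and matched by symbol.

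The replicate numbers were taken as pairing the libraries, since each number carries 1 set letter in the labels. Deviations of same-numbered libraries correlated across genes at r = 0.51, 0.54 and 0.64 for the 3 pairs of lines. Nothing says that replicates were separate cultures, so p-values measure only the spread between these libraries. Alternatives were a pseudocount of 0.1, no filter, rescaled libraries, each library left out, the replicate block, genotype for line, 3 groups, and each clone alone. The rule for genes named was the 10 IGF genes, pathway genes that passed in either fit (at most 4 a role), genes at their loci, and the 3 most similar genes of the 3 most variable ones with a mean of at least 1 FPKM. IGF2R, INSR, IGF2BP1, IGF2BP2, IGF2BP3, PAPPA, IGFBPL1, PLG, VTN, IGFALS, single marker genes and genes that overlap an IGF gene are outside this rule and were named after their values were seen. The genes and lists were chosen with earlier results of these data known.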

Additional observations from a re-analysis of the deposited data

Results flagged for a closer look

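IGF1 and IGFBP7 differed from WT in opposite directions in the 2 sets, with both MSX2-/- lines above WT in set F and both below it in set S. For IGF1 the mean difference from WT was 0.89 on the log2 scale in set F and -0.09 in set S, a change of -0.98, which was not tested because its mean was under the filter. In set S all IGF1 values were under 0.1 FPKM. For IGFBP7 the mean difference was 0.69 in set F and -0.56 in set S, a change of -1.25 (SE 0.64), and this difference was not tested, since the genes were chosen with the differences within each set known.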

How the results depend on the processing

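No value reversed a call. The count of IGF genes called between sets was 1 and became 0 with no filter on low values, 3 with genotype in place of line as the term, and 0 to 4 when each library was left out in turn. With a pseudocount of 0.1 and with rescaled libraries it stayed 1. The upper end of the range came only from the fits without a WT library, which compare MSX2-/- libraries only. Since the genes were chosen with the differences within each set known, that upper count is not a test of them. With genotype as the term 5492 of all 15895 genes passed, so nothing is read from the count there. No share of all genes is given for the fits with a library left out. The differences between the clones are not used as a test of IGF genes, and 2 libraries a line say nothing about their stability. The interaction of genotype and set is not used as a test of IGF genes, and it could not be fitted without a WT library. Pathway genes called numbered 3, and 2 with no filter (ESM1, and PIK3CB at an adjusted p of 0.0499, while IRS1 and PLAT were lost), 1 with 3 groups, 1 to 2 when each library was left out, and 13 with the replicate block, the setting that follows the pairing. No test of IGF genes is given with the replicate block. Each IGF gene had 1 row, so summing rows gave no alternative. The count of IGF genes with all MSX2-/- libraries on 1 side of WT was 5, beside 12.1% of all genes above and 9.19% below. It was 5 to 7 over the alternatives, 6 within replicate numbers, and no share of all genes is given for these. With fewer libraries any gene lies on 1 side more easily. The genes were chosen with this contrast, so nothing is read from these counts about stability.

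The design limits these results to 2 WT libraries, 1 in each set, and 2 clones, so a clone effect shared by both lines cannot be told apart from genotype. Rescaling moved the median of all genes by -0.01 on the log2 scale. The number of reads is unknown, and values under about 1 FPKM, such as IGF1, have no stated precision.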

Other observations

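Genes of the pathway list that liver expresses were looked at after their values were seen. PLG, which encodes plasminogen, was 0.388 and 1.23 FPKM in the WT libraries of sets F and S, 3.91 and 2.86 FPKM in 1#, and 0.423 FPKM and listed at 0 in 2#. VTN, which encodes vitronectin, was 8.53 and 4.76 FPKM in WT, 15.9 and 16.2 FPKM in 1#, and 4.98 and 0.624 FPKM in 2#. Both were highest in 1# and lowest in set S of 2#, as IGFBP1 was. IGFALS, the third member of the serum complex of IGF and IGFBP3, was also highest in 1#, at 0.867 and 0.612 FPKM, but was lowest in the WT library of set F, at 0.104 FPKM. The ratio of IGF2R to IGF1R was 1.10 and 1.15 in WT, 1.39 and 2.07 in 1#, and 1.34 and 1.46 in 2#, above WT in all 4 libraries. AC132217.1, a noncoding gene annotated over the last bases of IGF2 on the same strand, was at or near 0 and 1.26 FPKM in WT, 5.29 and 3.42 FPKM in 1#, and 4.75 and 1.08 FPKM in 2#, so its reads and those of IGF2 cannot be told apart there.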
